A study of Mus musculus with 6 samples.

Results

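The genes of the cyclooxygenase and prostaglandin E2 pathway were followed in gingiva, the oral mucosa around the teeth, of C57BL/6 mice aged 12 weeks. The group comprises 10 of the 48709 genes in the count table, chosen by gene symbol: the cyclooxygenases Ptgs1 and Ptgs2, the prostaglandin E synthases Ptges, Ptges2 and Ptges3, the degrading enzyme Hpgd and the receptors Ptger1 to Ptger4. Of these, 9 carry their symbol in the deposited table of normalized values, and Ptger1 was found in the count table through the GENCODE annotation. Total RNA from mice lacking Plg (Plg KO, 3 libraries) was compared with that from wild-type littermates (Plg WT, 3 libraries). Plg encodes plasminogen, the precursor of the fibrin-degrading protease plasmin, and the series asks how fibrin bears on neutrophils at mucosal surfaces. How the Plg allele was made is not given in these sources. Whether each library is its own animal is not stated in the labels. The p-values below therefore speak only of the spread among these libraries. Each group held libraries with and without reads of the Y-linked Ddx3y, given below, so that spread is not technical alone. Some libraries may still share an animal, so part of it may be technical.

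Prostaglandin E2 is made in 3 steps. Phospholipases release arachidonic acid from membranes, cyclooxygenases oxidise it to prostaglandin H2, and prostaglandin E synthases convert that to prostaglandin E2. Ptgs1 is the form present in most tissues at rest, whereas Ptgs2 is induced by cytokines, growth factors and microbial products. Prostaglandin E2 acts through 4 G protein-coupled receptors, EP1 to EP4, and Hpgd starts its breakdown. In the gums prostaglandin E2 is known as a mediator of vessel dilation, pain and bone loss.

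Total gene counts per library ran from 26183389 to 36429150. Keratins of oral epithelium were abundant in every library, with Krt14 at 13590 to 16724 CPM (counts per library size, corrected with TMM factors) and Krt13 at 6501 to 8237 CPM. Salivary gland markers summed to 1784 to 10941 CPM and skeletal muscle markers to 2576 to 11703 CPM. Plg had 2 counts in each group and gives no check of the genotype. Plg WT 3 and Plg KO 1 had 1475 and 1838 counts of the Y-linked Ddx3y, against at most 2 in the other 4 libraries, so each group held 1 such library.

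Ptgs2 was the member that rose in Plg KO gingiva, 17.6-fold from a level close to 0. The synthase Ptges, which is known to be induced together with Ptgs2, averaged 1.70-fold higher, and Ptgs1 and Hpgd averaged 1.37-fold and 1.22-fold lower, but none of the last 3 passed the test. Ptges2, Ptges3, Ptger2, Ptger3 and Ptger4 did not pass it either. Of 9 members with enough counts to be tested, 1 was called higher and 0 lower by edgeR's quasi-likelihood test at an adjusted p under 0.05, where 0.237% of 17757 tested genes were called in either direction, 0.191% higher and 0.0451% lower. DESeq2 called 2 of the 9, Ptgs2 and Ptges, with 2.26% of all tested genes called.

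**Figure D1:**
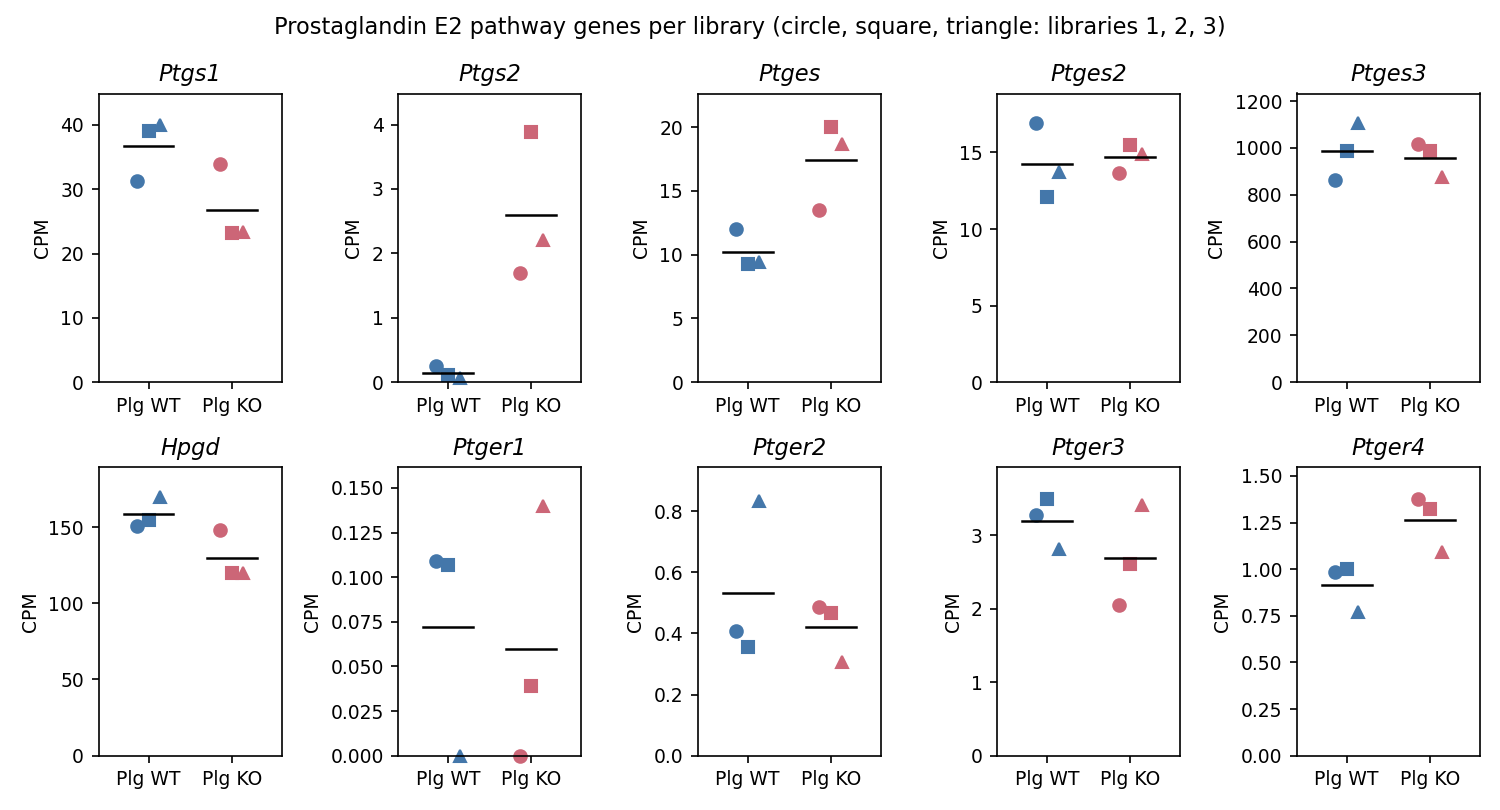
Each panel gives 1 gene, with CPM (TMM-normalized counts, axis from 0) on the vertical axis and the 3 Plg WT and 3 Plg KO libraries as points, and a line at each group mean. Ptgs2 lies between 0.0641 and 0.246 CPM in Plg WT, and between 1.70 and 3.88 CPM in Plg KO, and the libraries of Ptges, Hpgd and Ptger4 also separate by group, with smaller gaps.

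Ptgs2 (ENSMUSG00000032487, GRCm38 chromosome 1, 150100031 to 150108227, plus strand) is shown with the 250 bases before its annotated start because it was the called member. Ptgs1 (ENSMUSG00000047250, chromosome 2, 36230426 to 36252272, plus strand), its constitutive counterpart, is shown beside it. The sequences are from RefSeq on GRCm38.p6, at chr1:150099781-150100030 and chr2:36230176-36230425, both on the plus strand and written 5′ to 3′. Capitals mark matches to any of 6 motifs searched on both strands: TTGCGCAA (the palindromic C/EBP site), TGACGT (the short form of the cyclic AMP response element), CACGTG (E-box), a 10-base NF-kappaB consensus, TGANTCA (AP-1) and the core promoter box TATAAA.
Ptgs2: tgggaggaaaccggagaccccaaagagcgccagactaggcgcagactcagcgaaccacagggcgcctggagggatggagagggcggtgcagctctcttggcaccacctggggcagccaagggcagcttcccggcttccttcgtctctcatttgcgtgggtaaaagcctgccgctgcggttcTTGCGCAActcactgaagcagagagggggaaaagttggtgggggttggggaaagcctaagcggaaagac
Ptgs1: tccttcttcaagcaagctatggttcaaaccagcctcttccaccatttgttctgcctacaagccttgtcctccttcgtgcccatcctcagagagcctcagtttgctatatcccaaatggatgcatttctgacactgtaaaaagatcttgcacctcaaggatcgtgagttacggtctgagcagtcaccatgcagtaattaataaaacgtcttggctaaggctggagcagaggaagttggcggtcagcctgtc
The Ptgs2 stretch held 1 match, the C/EBP palindrome TTGCGCAA, whose first base lies 69 bases before the annotated start. That motif occurred in 0.164% of 32851 promoter stretches of the same length. The 6 motifs were chosen after the Ptgs2 promoter had been read, so neither this share nor the comparison with Ptgs1 tests the match. The antisense gene Ptgs2os, with 0 to 3 counts per library, is annotated up to position 150099963 on the minus strand and overlaps the printed Ptgs2 stretch. The Ptgs1 stretch held 0 matches to the 6 motifs. Just after the annotated Ptgs2 start, at chr1:150100043-150100052, the 10 bases ACGTCACGTG hold the short cyclic AMP element on the minus strand and an E-box that overlap each other. Within 300 bases that run 50 bases past the start, TGACGT occurred in 7.51% and CACGTG in 7.15% of promoters. Among the other members found in the promoter table, Ptges2 had an E-box 77 bases before its start and Hpgd the core promoter box just after its start. Across all promoter stretches of 250 bases, TGACGT was in 6.47%, CACGTG in 6.02%, the NF-kappaB consensus in 4.11%, TGANTCA in 6.75% and TATAAA in 12.4%. A match describes the letters only, and binding was not measured.

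Ptgs2 had 9, 3 and 2 counts in Plg WT 1, 2 and 3, against 63, 100 and 79 counts in Plg KO 1, 2 and 3. As levels these were 0.246, 0.107 and 0.0641 CPM in Plg WT against 1.70, 3.88 and 2.21 CPM in Plg KO. Every Plg KO library was thus above every Plg WT library, and Plg KO 2 was the highest. The mean was 0.139 ± 0.0949 CPM in Plg WT against 2.60 ± 1.14 CPM in Plg KO, as mean ± SD of 3 libraries. The log2 difference was 4.13 ± 0.55 (SE), and the Benjamini-Hochberg adjusted p of edgeR was 0.0446. The gene stood at rank 39 of 17757 by p. Because the Plg WT level rests on 14 counts, the size of the fold is uncertain: without Plg WT 1, which held 9 of them, the log2 difference was 4.87 (adjusted p = 0.0315).

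The call of Ptgs2 was close to the threshold. It was lost in edgeR's test without Plg WT 2 (adjusted p = 0.266), Plg WT 3 (0.138), Plg KO 1 (0.0502), Plg KO 2 (0.148) or Plg KO 3 (0.0933), where the log2 difference was between 3.74 and 4.36. It was also lost in limma-voom (log2 difference 4.08, adjusted p = 0.0993) and kept in DESeq2 (4.17, adjusted p = 4.87e-09). With sex, as seen in Ddx3y and Xist, added to the model the difference was 4.17 ± 0.45 (adjusted p = 0.0315 in edgeR). Among libraries with Ddx3y, Plg WT 3 had 0.0641 CPM and Plg KO 1 had 1.70 CPM, and among those without it the Plg WT libraries reached at most 0.246 CPM and the Plg KO libraries at least 2.21 CPM.

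Neutrophils and macrophages are among the cells known to make Ptgs2, besides epithelium, endothelium and fibroblasts. Sums of neutrophil markers were also higher in Plg KO. Their 10 genes summed to 30.4, 52.1 and 68.7 CPM in Plg WT against 215.1, 495.9 and 144.4 CPM in Plg KO. In these sums Plg KO 2 was highest as for Ptgs2, but Plg KO 3 was lowest, where for Ptgs2 it was Plg KO 1. Within Plg WT the sums ran in the opposite order to Ptgs2. Of these sums, S100a8 and S100a9, which epithelium can also make, held 25.5 to 63.1 CPM in Plg WT against 122.0 to 466.4 CPM in Plg KO. The other 8 genes summed to 4.83, 2.64 and 5.64 CPM in Plg WT against 9.88, 29.5 and 22.4 CPM in Plg KO, also without overlap. Over the Plg KO libraries these 8 ran in the order of Ptgs2, and over the Plg WT libraries they did not. Of the 8 neutrophil markers tested, edgeR called 0 (6 higher with an unadjusted p below 0.05, 5 by DESeq2). Over all tested genes 4.97% were higher with an unadjusted p below 0.05 in edgeR, and DESeq2 called 2.26% in either direction. The defining marker Ly6g had 1 count over Plg WT and 63 over Plg KO, of which Plg KO 1 had 0. Monocyte and macrophage markers overlapped between groups, at 152.3 to 191.9 CPM in Plg WT against 170.6 to 259.4 CPM in Plg KO, and so did keratinocyte markers, at 41021 to 49656 and 41802 to 50344 CPM. Fibroblast markers summed to 2211 to 3716 and 1418 to 2589 CPM (of 10 tested, edgeR called 0 and 4 were lower with an unadjusted p below 0.05), and endothelial markers to 88.1 to 115.4 and 70.8 to 101.0 CPM. The share of all tested genes that were lower with an unadjusted p below 0.05 in edgeR was 4.27%. The part of cell composition in the Ptgs2 result was not tested. In bulk tissue, fewer cells of a type and less RNA per cell cannot be told apart.

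Ptgs1, the constitutive cyclooxygenase, had 31.3, 39.1 and 39.98 CPM in Plg WT against 34.0, 23.2 and 23.4 CPM in Plg KO. The groups overlapped, since Plg KO 1 lay above Plg WT 1. The log2 difference was -0.45 ± 0.18 (SE) and the adjusted p 0.489 in edgeR and 0.424 in DESeq2. With the sex term it was -0.47 ± 0.13 (adjusted p = 0.259 in edgeR). Mast cells and platelets are known to carry Ptgs1. Mast cell markers summed to 29.6 to 39.0 CPM in Plg WT against 22.5 to 25.2 CPM in Plg KO, without overlap (of 5 tested, edgeR called 0 and 4 were lower with an unadjusted p below 0.05), and platelet markers to 23.0 to 26.5 and 25.8 to 29.3 CPM. Over all tested genes 4.27% were lower with an unadjusted p below 0.05 in edgeR. The part of mast cells in the Ptgs1 values was not tested.

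The balance between the cyclooxygenases was compared within each library, where it does not depend on library scaling. Per kb of exon, Ptgs2 was 0.662%, 0.232% and 0.136% of the Ptgs1 and Ptgs2 transcripts in Plg WT 1, 2 and 3, against 4.07%, 12.4% and 7.44% in Plg KO 1, 2 and 3. Ptgs1 therefore remained the more abundant cyclooxygenase transcript in every library, by 7.05-fold in Plg KO 2 and by 736-fold in Plg WT 3, the latter against 2 counts of Ptgs2. The mean share was 0.343% ± 0.280 in Plg WT against 7.98% ± 4.199 in Plg KO (SD, n = 3 each). A two-sided exact permutation test gave p = 0.1, the smallest that 3 libraries against 3 allow.

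Of the terminal synthases, Ptges (ENSMUSG00000050737, chromosome 2, 30889471 to 30929863, minus strand) encodes the microsomal, inducible form. It had 12.0, 9.28 and 9.39 CPM in Plg WT against 13.5, 20.04 and 18.7 CPM in Plg KO, so the groups did not overlap. In all, 4 of the 9 tested members had groups without overlap, 3 with Plg KO above and 1 with Plg WT above. Among all tested genes the share was 14.7%, with Plg KO above in 7.51% and below in 7.18%. For Ptges the log2 difference was 0.76 ± 0.19 (SE) and the adjusted p 0.223 in edgeR's test and 0.0261 in DESeq2. In limma-voom the adjusted p was 0.288, and without any single library it ran from 0.0980 to 0.694 in edgeR, with log2 differences of 0.65 to 0.92. As with Ptgs2, Plg KO 2 was the highest library and Plg KO 1 the lowest of its group.

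Ptges2 (ENSMUSG00000026820, chromosome 2, 32395896 to 32405772) encodes a membrane-associated synthase. It had 16.9, 12.1 and 13.7 CPM in Plg WT against 13.7, 15.5 and 14.9 CPM in Plg KO, with a log2 difference of 0.04 ± 0.15 (SE). The Plg KO libraries lay within the range of the Plg WT libraries. Ptges3 (ENSMUSG00000071072, chromosome 10, 128058954 to 128077272) encodes the cytosolic synthase, better known as the Hsp90 co-chaperone p23. It had 863, 989 and 1108 CPM in Plg WT against 1016, 987 and 875 CPM in Plg KO, with a log2 difference of -0.04 ± 0.13 (SE). A processed pseudogene of Ptges3 is annotated on chromosome 6, and how reads shared by the copies were divided is not stated in the labels. Both genes had adjusted p over 0.9 in edgeR, at 0.962 and 0.958.

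**Figure D2:**
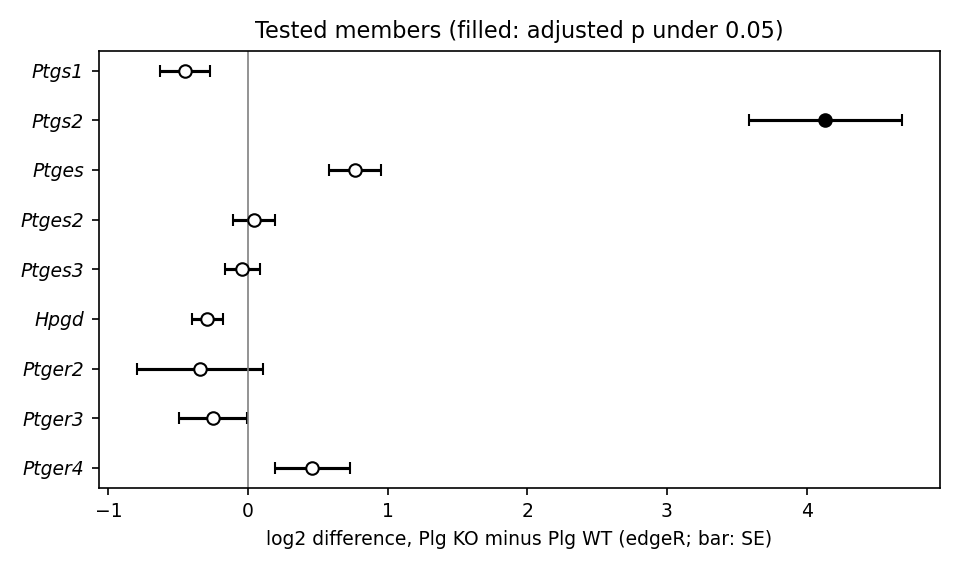
The horizontal axis gives the log2 difference of Plg KO minus Plg WT from the edgeR fit, with bars of 1 SE, for the 9 tested members. Ptgs2, the filled point at 4.13, passed the test, and the other 8 points lie between -0.45 and 0.76.

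Hpgd (ENSMUSG00000031613, chromosome 8, 56294585 to 56321043, plus strand) encodes the dehydrogenase that inactivates prostaglandins as the first step of their breakdown. It had 150.6, 154.7 and 169.8 CPM in Plg WT against 148.0, 120.1 and 120.2 CPM in Plg KO. The groups did not overlap, but Plg KO 1 lay just below the lowest Plg WT library. The log2 difference was -0.29 ± 0.11 (SE) and the adjusted p 0.478 in edgeR and 0.485 in DESeq2, and -0.30 ± 0.08 (adjusted p = 0.269 in edgeR) with the sex term. At an unadjusted p under 0.05, 2 members were higher (Ptgs2 and Ptges) and 2 lower (Ptgs1 and Hpgd), where 9.25% of all tested genes passed, 4.97% higher and 4.27% lower.

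The last step of synthesis was then set against the first step of breakdown within each library. Per kb, Hpgd transcripts outnumbered Ptges transcripts 29.3-fold, 38.9-fold and 42.3-fold in Plg WT 1, 2 and 3, against 25.7-fold in Plg KO 1 and at most 15.02-fold in Plg KO 2 and 3. The log2 ratio of Ptges to Hpgd was -5.19 ± 0.28 in Plg WT against -4.13 ± 0.48 in Plg KO (SD, n = 3 each), a difference of 1.05. The groups did not overlap, and the two-sided exact permutation test gave p = 0.1, the smallest it can give. Plg KO 1 and Plg WT 1, at -4.68 and -4.87, were closest to each other.

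**Figure D3:**
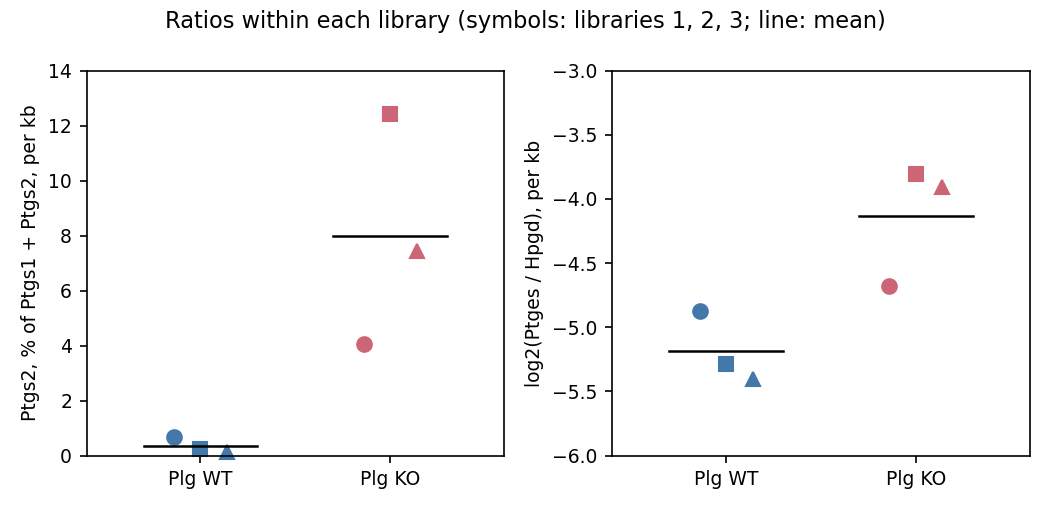
The left panel gives Ptgs2 as a percent of Ptgs1 plus Ptgs2 and the right panel the log2 ratio of Ptges to Hpgd, both per kb of exon and within each library, with points for libraries and lines for group means. Plg KO libraries lie above all Plg WT libraries in both panels, from 4.07% to 12.4% on the left and from -4.68 to -3.81 on the right.

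The receptors were low in all libraries and none passed the test. Ptger4 (ENSMUSG00000039942, chromosome 15, 5206661 to 5244187, minus strand) encodes EP4, which raises cyclic AMP. It had 0.983, 0.9997 and 0.769 CPM in Plg WT against 1.38, 1.32 and 1.09 CPM in Plg KO, and these groups did not overlap. The log2 difference was 0.46 ± 0.27 (SE) and the adjusted p 0.676 in edgeR and 0.915 in DESeq2, and it rests on 88 counts in Plg WT against 124 in Plg KO. Ptger2 (ENSMUSG00000037759, chromosome 14, 44988195 to 45003820), which encodes EP2 and is likewise coupled to cyclic AMP, had 0.409, 0.357 and 0.833 CPM in Plg WT against 0.486, 0.466 and 0.308 CPM in Plg KO. Its log2 difference of -0.35 ± 0.45 (SE) turned to 0.12 without Plg WT 3, the highest library.

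Ptger3 (ENSMUSG00000040016, chromosome 3, 157566892 to 157645888) encodes EP3, whose main effect is to lower cyclic AMP. It had 3.28, 3.50 and 2.82 CPM in Plg WT against 2.05, 2.60 and 3.42 CPM in Plg KO, overlapping values with a log2 difference of -0.25 ± 0.24 (SE). Ptger3 was the most abundant receptor transcript per kb in every library, at 64.2% to 72.0% of the 4 receptor transcripts in Plg WT against 54.5% to 70.7% in Plg KO. Ptger4 made up 14.99% to 17.97% and 19.3% to 31.3%. Ptger1 (ENSMUSG00000019464, chromosome 8, 83666678 to 83672753), which encodes the calcium-mobilising EP1, had 4, 3 and 0 counts in Plg WT against 0, 1 and 5 in Plg KO and was not tested. A count of 0 allows up to 3 counts, which is 0.0961 CPM for Plg WT 3 or 0.0810 CPM for Plg KO 1, for counting error only.

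The members spanned a wide range of levels per kb of exon. Length was that of all annotated exons of a gene merged, and the order depends on it. In Plg WT the order was Ptges3 (445 ± 55.4 CPM per kb), Hpgd (94.1 ± 6.01), Ptgs1 (9.47 ± 1.24), Ptges2 (2.81 ± 0.485), Ptges (2.60 ± 0.393), Ptger3 (0.562 ± 0.0609), Ptger4 (0.138 ± 0.0193), Ptger2 (0.103 ± 0.0503), Ptgs2 (0.0303 ± 0.0207) and Ptger1 (0.0132 ± 0.0114), as mean ± SD of 3 libraries. Neighbours whose ranges overlapped were Ptges2 with Ptges, Ptger4 with Ptger2, and Ptgs2 with Ptger1. In Plg KO Ptgs2 stood sixth, at 0.568 ± 0.249 CPM per kb, with a range that overlapped that of Ptger3 (0.473 ± 0.121), and Ptges, at 4.43 ± 0.883, stood above Ptges2, at 2.90 ± 0.183, without overlap. The order of the other members was as in Plg WT.

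**Figure D4:**
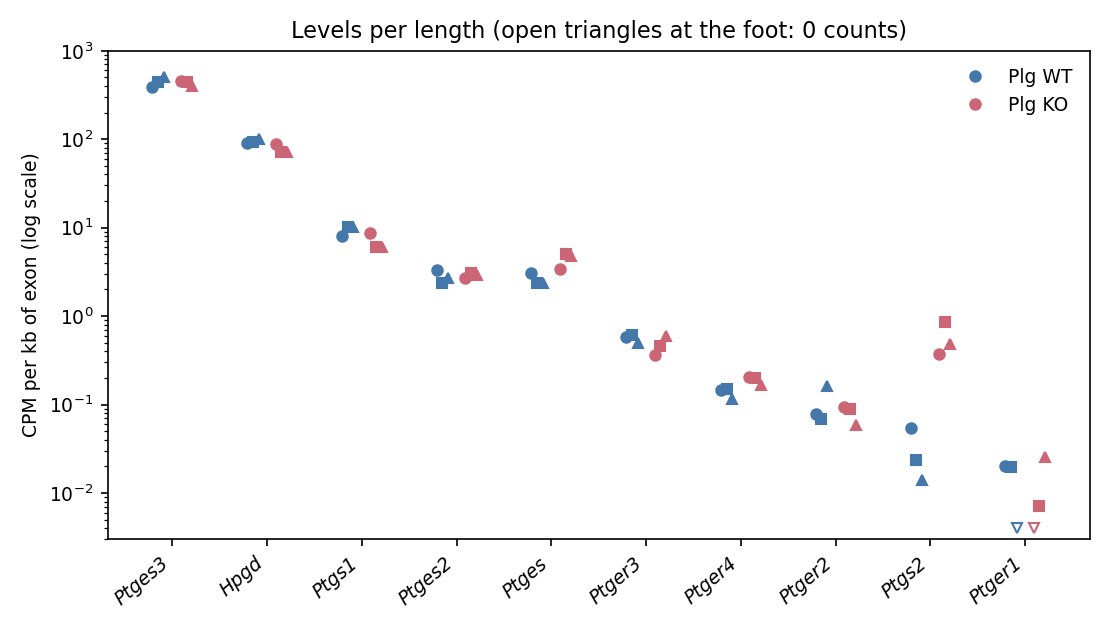
The vertical axis gives CPM per kb of exon on a log scale for each member in the 3 Plg WT and 3 Plg KO libraries, with open triangles for libraries without a count. Ptges3 and Hpgd lie highest, and Ptgs2 moves from a mean of 0.0303 in Plg WT to 0.568 in Plg KO, past the receptors Ptger2 and Ptger4.

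The rest of arachidonic acid metabolism was read from 4 lists of 47 genes. Of the 39 tested, edgeR called 0 higher and 0 lower (with an unadjusted p below 0.05, 2 higher and 4 lower). DESeq2 called 0 higher and 2 lower, and the median log2 difference was -0.08 against -0.00 over all tested genes. Over all tested genes 4.97% were higher and 4.27% lower with an unadjusted p below 0.05 in edgeR. DESeq2 called 2.26% of all tested genes in either direction. Among 14 tested phospholipases A2, Pla2g4a, the cytosolic enzyme that supplies arachidonic acid to cyclooxygenases, had 9.01 ± 0.753 CPM in Plg WT against 7.86 ± 0.715 in Plg KO (SD, n = 3 each). The secreted Pla2g2d, an enzyme of lymphoid tissue, had 4.61, 1.39 and 0.897 CPM in Plg WT against 0.216, 0.272 and 0.392 CPM in Plg KO. Its log2 difference was -2.96 ± 0.69 (SE) and the adjusted p 0.196 in edgeR and 0.00128 in DESeq2. B cell markers ran in the same order over the Plg WT libraries, summing to 71.8, 32.0 and 18.2 CPM there and to 2.1 to 15.9 CPM in Plg KO, and their part in the Pla2g2d values was not tested. Pla2g2f and Pla2g4e, 2 further phospholipases, had log2 differences of -0.25 ± 0.16 and 0.30 ± 0.21.

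Among 8 tested genes for other prostanoids, edgeR called 0 (with an unadjusted p below 0.05, 1 higher and 3 lower). Over all tested genes 4.97% were higher and 4.27% lower with an unadjusted p below 0.05 in edgeR. Ptgis, the prostacyclin synthase of vessels and fibroblasts, had 13.0, 13.9 and 15.2 CPM in Plg WT against 4.56, 4.04 and 8.26 CPM in Plg KO. The groups did not overlap, and the log2 difference was -1.31 ± 0.27 (SE) and the adjusted p 0.161 in edgeR and 5.80e-04 in DESeq2. Its receptor gene Ptgir had 0.990 ± 0.255 CPM in Plg WT against 0.5003 ± 0.147 in Plg KO, and Ptgfr, the receptor of prostaglandin F2 alpha, had 8.24 ± 0.877 and 4.81 ± 1.27 CPM (SD, n = 3 each). Akr1b3, an aldo-keto reductase that can form prostaglandin F2 alpha, had 36.9 ± 2.61 and 52.2 ± 6.54 CPM. The groups did not overlap for any of these genes, and their adjusted p in edgeR were 0.455 (Ptgir), 0.301 (Ptgfr) and 0.204 (Akr1b3). Of the 8 tested, 1 separated with Plg KO above and 4 with Plg WT above. Among all tested genes 14.7% had groups without overlap, with Plg KO above in 7.51% and below in 7.18%. The named genes were those of the list with the smallest p. Fibroblast and endothelial marker sums, given above, overlapped between groups, while 9 of 10 fibroblast markers and 7 of 9 endothelial markers had negative log2 differences, with medians of -0.45 and -0.18. Fat cell markers summed to 42.0 to 84.4 CPM in Plg WT against 20.2 to 24.8 CPM in Plg KO, without overlap. All 6 that were tested had negative log2 differences, edgeR called 1 lower (Cidec, a lipid droplet protein) and DESeq2 called 3. Over all tested genes edgeR called 0.0451% lower, and DESeq2 called 2.26% in either direction. The call of Cidec was lost in limma-voom and without any single library other than Plg WT 1 (adjusted p of 0.0556 to 0.200 in edgeR). The part of these cell types in the Ptgis values was not tested.

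Of 5 genes for prostaglandin transport and later breakdown, edgeR called 0 (0 with an unadjusted p below 0.05). Slco2a1, which takes prostaglandins up into cells, had 14.1 ± 1.61 CPM in Plg WT against 16.2 ± 0.705 in Plg KO, as mean ± SD of 3 libraries each. Abcc4, which exports them, had a log2 difference of -0.34 ± 0.22 (SE). The reductases Ptgr1 and Zadh2, which act after Hpgd, had log2 differences of 0.18 ± 0.15 and -0.07 ± 0.09 (SE). Of 12 tested lipoxygenase and leukotriene genes, edgeR also called 0 (1 higher with an unadjusted p below 0.05, against 4.97% of all tested genes). That gene was Alox5ap, the activating protein of 5-lipoxygenase, with 5.57 ± 1.03 CPM in Plg WT against 7.97 ± 0.261 in Plg KO and an adjusted p of 0.380 in edgeR. Alox12, Alox12e and the leukotriene B4 receptor gene Ltb4r1 had log2 differences of 0.16 ± 0.13, 0.76 ± 0.36 and -0.38 ± 0.18.

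Signals known to raise Ptgs2 include cytokines and growth factors, of which 2 rose in Plg KO. Of 11 tested, edgeR called 2 higher and 0 lower (8 higher with an unadjusted p below 0.05, 7 higher by DESeq2), with a median log2 difference of 0.90. Over all tested genes edgeR called 0.191% higher, 4.97% were higher with an unadjusted p below 0.05, and DESeq2 called 2.26% in either direction. The list was chosen with earlier results of these data known, so its counts are no independent test. The 2 called by edgeR were Il1b, which encodes interleukin-1 beta, and Osm, which encodes oncostatin M. Il1b had 1.09, 2.32 and 1.76 CPM in Plg WT against 9.07, 16.0 and 12.1 CPM in Plg KO, and Osm had 0.273, 0.250 and 0.320 CPM in Plg WT against 1.48, 3.30 and 2.16 CPM in Plg KO. Plg KO 2 was the highest and Plg KO 1 the lowest Plg KO library for both, the order seen for Ptgs2. Within Plg WT neither ran in its order: Ptgs2 was highest in Plg WT 1, Il1b in Plg WT 2 and Osm in Plg WT 3. Both calls were lost in edgeR without Plg WT 2, Plg WT 3, Plg KO 2 or Plg KO 3, with adjusted p of 0.0926 to 0.117 for Il1b and 0.0970 to 0.266 for Osm, and under the replicate block (0.0842 for Il1b and 0.264 for Osm). That of Osm was also lost in limma-voom (adjusted p = 0.105) and in limma-trend on deposited CPM plus 0.5 (adjusted p = 0.0508). The EGF receptor ligands Areg, at 3.002 ± 0.887 and 8.39 ± 1.26 CPM, and Tgfa, at 15.1 ± 1.94 and 25.97 ± 2.57 CPM (SD, n = 3 each), both had an adjusted p of 0.0918 in edgeR. Il17a had 0 counts in all 6 libraries.

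Of 19 tested factors known to act on the Ptgs2 gene or its RNA, edgeR called 0, with a median log2 difference of -0.07. With an unadjusted p below 0.05 in edgeR 1 was higher, and DESeq2 called 1 higher. Over all tested genes 4.97% were higher with such a p, and DESeq2 called 2.26% in either direction. The exception in DESeq2 was Hif1a, the oxygen-regulated factor, with 38.9, 41.9 and 49.5 CPM in Plg WT against 73.0, 94.5 and 56.7 CPM in Plg KO and an adjusted p of 0.219 in edgeR and 0.0191 in DESeq2. Nfkbia, the inhibitor and target of NF-kappaB, had a log2 difference of -0.24 ± 0.11, Nfatc1 one of -0.24 ± 0.16, and Zfp36, whose protein destabilises AU-rich RNA, one of 0.25 ± 0.17 (SE). For the factors that bind the motifs printed above, Cebpb had 1.95 to 2.53 CPM in Plg WT against 1.65 to 1.84 CPM in Plg KO, Cebpd 1.94 to 2.85 and 1.67 to 2.52 CPM, and Creb1 14.3 to 14.96 and 14.8 to 19.2 CPM.

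Genes known to be induced by prostaglandin E2 or cyclic AMP had both signs. Of 15 tested, edgeR called 0, with a median log2 difference of 0.16. With an unadjusted p below 0.05 in edgeR, 4 were higher and 3 lower, and DESeq2 called 3 higher and 0 lower. Over all tested genes 4.97% were higher and 4.27% lower with such a p, and DESeq2 called 2.26% in either direction. Il6, which encodes interleukin-6, had 10 counts over Plg WT and 89 over Plg KO (adjusted p = 0.234 in edgeR). Has2, a hyaluronan synthase, had 1.06, 0.678 and 0.513 CPM in Plg WT against 1.75, 2.64 and 3.42 CPM in Plg KO (adjusted p = 0.172 in edgeR). Areg stands in this list as well as among the signals. Pde4b, which degrades cyclic AMP, had 31.4 ± 0.459 CPM in Plg WT against 23.2 ± 3.54 in Plg KO (SD, n = 3 each), an edgeR log2 difference of -0.43 ± 0.13 with an adjusted p of 0.321.

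**Figure D5:**
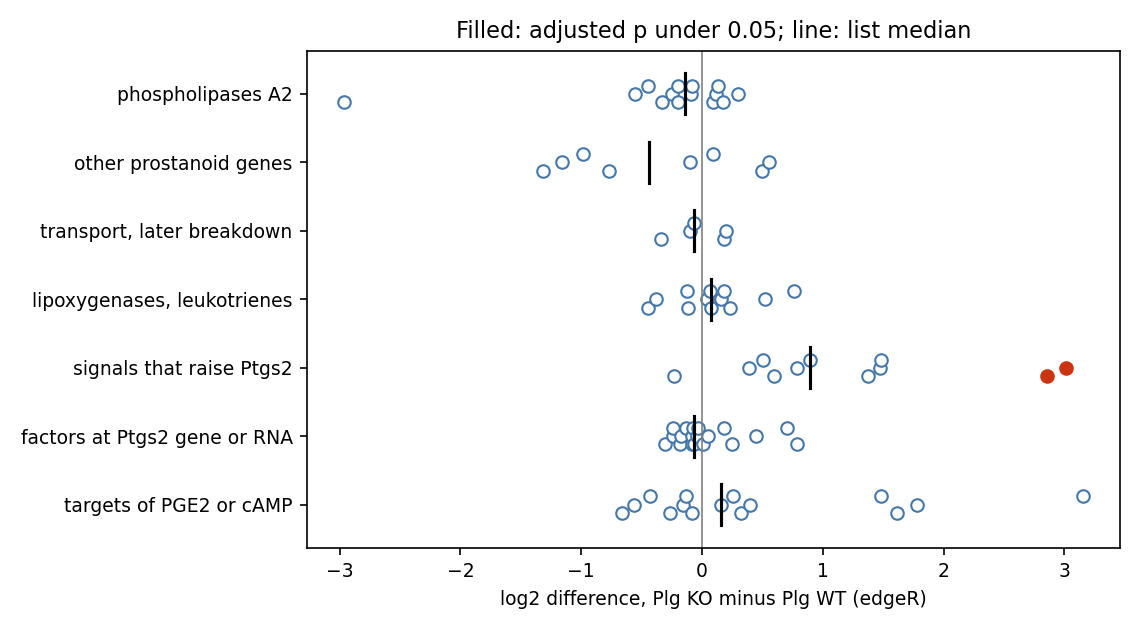
Each point is a tested gene of 1 list, placed by its log2 difference of Plg KO minus Plg WT in the edgeR fit, with a line at the list median. The called genes, Osm and Il1b at 3.01 and 2.85, are in the list of signals that raise Ptgs2, whose median is 0.90, and the medians of the other lists lie between -0.44 and 0.16.

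The genes whose levels ran most like Ptgs2 were sought among 13193 named genes averaging 1 CPM or more, by Pearson's r of log2(CPM + 0.5) over the 6 libraries. The 5 nearest were the neutrophil chemokine Cxcl3 (r = 0.996), the actin-bundling Fscn1 (0.995), the phospholipid-binding Anxa1 (0.995), the peptide hormone Adm2 (0.995) and the myeloid receptor Cd300lf (0.994). These values describe 6 libraries that share the group difference and are not tested. Cxcl3 was called in edgeR (adjusted p = 0.0210), and the other 4 were not (0.0718 to 0.223). The call of Cxcl3 was lost without Plg WT 2, Plg WT 3, Plg KO 2 or Plg KO 3 (adjusted p of 0.0740 to 0.152 in edgeR) and under the replicate block (0.211). Anxa1, known as a glucocorticoid-induced inhibitor of phospholipase A2, had 2198, 1954 and 2024 CPM in Plg WT against 2874, 3667 and 3160 CPM in Plg KO.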

How the data were processed

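RNA sequencing libraries of gingiva, 3 Plg WT and 3 Plg KO, were compared. Per the labels' protocols they were made with Nextera XT, which does not mark strand, and read as paired ends on a NextSeq500. Raw counts per gene were used as deposited. The build GRCm38.p3 (mm10) and the tools STAR 2.5.2a, DESeq2, limma and edgeR are named, per the submitters' processing notes, with no role given. Which tool counted reads, and how it treated shared ones, is not given here by any source. The CPM values deposited by the authors are TMM-scaled. They gave gene names and alternative fits, and 100% of them returned whole reads (tolerance 0.01) that equalled the raw counts and gave 34 genes higher and 8 lower. Of the deposited count entries, 22 name no gene (at most 3.55e-05% of a library) and were left out.

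The test was edgeR 4.0.16 (R 4.3.3), quasi-likelihood, TMM, filterByExpr (17757 genes), genotype only, Benjamini-Hochberg over all tested genes, called at an adjusted p under 0.05. The SE is the absolute log2 difference divided by the square root of F. CPM in the text were computed from the counts with TMM factors. Exon lengths and positions are from GENCODE M21 on GRCm38. The length of a gene is that of all its annotated exons merged, and which transcript forms were made was not measured. Alternatives were DESeq2 1.42.0, limma 3.58.1 (voom, or log2 of deposited CPM plus 0.5 or 0.1), RLE or upper-quartile factors, other filters, a replicate block, a sex term and leaving out each library. The reads recovered from CPM were added as an alternative after seeing the data. The edgeR, DESeq2 and voom fits were checked on simulated counts. No library was a copy of another: over all pairs of libraries, chi-square over degrees of freedom was between 21.4 and 111.4.

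The members and lists were chosen with earlier results of these data known, and the 6 motifs after the Ptgs2 promoter had been read. Named genes are all 10 members, every called gene of the 7 pathway, signal, factor and target lists, the 4 genes of each with the smallest p, and the 5 genes most like Ptgs2. Krt13, Krt14, S100a8, S100a9, Ly6g, Cidec, Cebpb, Cebpd, Creb1 and Il17a were named after their values were seen. Depth limits the low members: 3 counts equal 0.0810 to 0.117 CPM.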

Additional observations from a re-analysis of the deposited data

How the results depend on the processing

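Of 152 alternative values of the 9 tested members, 140 kept direction and side of the threshold, and of 677 for 40 other named genes that were tested 626 did and 4 turned in sign. Ptgs2 kept its direction under all 17 alternatives and passed the threshold in 10. Its log2 difference was 2.22 to 4.87, the lowest on deposited CPM plus 0.5, whose pseudocount lowers the change of low genes. All these tallies include the reads recovered from CPM, which equalled the raw counts. That alternative repeats the reported fit and is no separate check. The number of members called was 2 with DESeq2, 0 with limma-voom, 0 with the replicate block and 0 to 1 without any single library. Genes called higher over all tested genes numbered 34 as reported, 274 with DESeq2, 122 without a filter, 54 with the sex term, 2 with the replicate block and 1 to 184 without a single library. Genes called lower numbered 8 as reported, 128 with DESeq2, 40 without a filter, 0 with the replicate block and 1 to 35 without a single library. The pathway lists had 0 genes called as reported and 2 (Pla2g2d and Ptgis) with DESeq2 and without a filter. The cause of these shifts was not tested. Differences near 0 changed sign: without any single library Ptges2 ran from -0.061 (Plg WT 2 left out) to 0.19, Ptges3 from -0.13 to 0.052 (above 0 without Plg WT 3 or Plg KO 3), Ptger2 from -0.56 to 0.12 (Plg WT 3 left out), Krt13 from -0.13 to 0.037, Krt14 from -0.11 to 0.0077 and Cebpd from -0.15 to 0.15. Libraries with the same number did not deviate together (correlations of -0.26, -0.01 and -0.22 across genes). This gave no sign of pairing by number, but with 3 libraries per group it cannot exclude a shared litter or batch. Under the replicate block the Ptgs2 difference was 4.11 on the log2 scale, and its adjusted p in edgeR 0.290. Depth limits Ptgs2 in Plg WT, the receptors and Ptger1.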
